A study of Mus musculus with 8 samples.

Results

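S9.6 signal was examined over 7 genes of the Hippo pathway, Yap1, Wwtr1, Tead1, Lats1, Lats2, Amotl1 and Amotl2, in mouse muscle stem cells (MuSCs) with and without Kmt5b. All rows of the peak table whose gene symbol was one of these names were taken. This gave 35 of 28265 union peaks, spread over 6 genes: Tead1 held 21, Wwtr1 5, Yap1 4, Lats1 3, and Amotl1 and Amotl2 held 1 each. No row carried the name Lats2. In Kmt5b sKO cells, 8 of the 35 peaks were called higher, all of them in Yap1 and Wwtr1, and none was called lower. Over all tested peaks of the table, 32.9% were called higher and 0.883% lower.

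The Hippo pathway is a kinase cascade that restrains the growth of organs and the expansion of progenitor cells. LATS1 and LATS2, the kinases at its lower end, phosphorylate the coactivators YAP1 and TAZ (the protein of Wwtr1) and thereby keep them out of the nucleus, and the angiomotin proteins AMOTL1 and AMOTL2 hold the same coactivators at cell junctions. Unphosphorylated YAP1 and TAZ bind DNA through TEAD transcription factors such as TEAD1, and YAP1 is known to favour proliferation of activated MuSCs.

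The assay was DRIP-seq, in which DNA-RNA hybrids are precipitated and sequenced. It used the S9.6 antibody, which binds RNA:DNA hybrids and so recovers the DNA of R-loops, where a transcript pairs with its template strand and displaces the other strand. The cells, labelled as muscle satellite cells (another name for MuSCs), came from adult mice on a C57BL/6 background. The Ctrl group had the genotype Pax7CreERT/Suv4-20h1WT and the Kmt5b sKO group Pax7CreERT/Suv4-20h1KO, where Suv4-20h1 is an older name of Kmt5b, the gene of a methyltransferase that turns mono- into dimethylated lysine 20 of histone H4. Each genotype had 3 S9.6 libraries, described by the study as biological replicates. Both groups carried the Cre allele, which is expressed from the Pax7 locus and activated by tamoxifen, so that the floxed Kmt5b allele is lost in cells that express Pax7. The cells were purified from limb and trunk muscle with magnetic beads and proliferated in culture. The labels do not tie a library to an animal, an age or a sex, nor say whether animals were pooled. The score of a peak is the signal summed over its length and scaled by reads from Drosophila DNA added as a spike-in, rounded to a whole number, and it has no unit beyond that.

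Totals of all scores ran from 3893768 to 4729631 in the Ctrl libraries and from 4699599 to 4930261 in the Kmt5b sKO libraries, while the median autosomal peak scored 56 to 65 in Ctrl and 81 to 84 in Kmt5b sKO. The peak on Kmt5b itself scored 412, 658 and 420 in Ctrl and 440, 449 and 484 in Kmt5b sKO, but S9.6 signal on a floxed gene is no check of its deletion. Peaks lay on 5 of 8 marker genes of MuSCs and myoblasts, among them Pax7, Myod1 and Des, and none on Myf5, Cdh15 and Vcam1. The summed score of these 8 genes was 4058 to 4914 in Ctrl and 4480 to 4650 in Kmt5b sKO. None of 4 haematopoietic markers had a peak, and Col3a1 was the sole 1 of 4 fibro-adipogenic markers with peaks (782 to 1097 in Ctrl, 900 to 990 in Kmt5b sKO). Of 4 endothelial markers, Pecam1 and Tek had peaks, with sums of 178 to 193 in Ctrl and 290 to 364 in Kmt5b sKO, whereas Cdh5 and Kdr had none. Myod1 (466 to 571 in Ctrl, 606 to 675 in Kmt5b sKO) and Dag1 (70 to 90, 101 to 135) were separated in the same way. Pax7, Itga7 and Des overlapped. Of all tested peaks taken singly, 41.5% had all 3 Kmt5b sKO libraries above the 3 Ctrl libraries. S9.6 signal on a marker gene is not its expression, and a contribution of endothelial cells to the results was not tested.

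Windows of 200 bp from the centre of a peak show which sequence lay under the signal in the genes that gained and in those with the highest scores. They are given 5′ to 3′ on the strand of the gene, from the GRCm38 (mm10) genome, with capitals marking each run of GGG or longer, since a G-rich displaced strand is a known feature of R-loops. The windows are Wwtr1 peak 4 (chr3:57476000-57476199, minus strand) and Yap1 peak 1 (chr9:7995100-7995299, minus strand), the peaks with the smallest adjusted p of those genes, then Amotl2 peak 1 (chr9:102725900-102726099, plus strand), the member peak with the highest score, and Tead1 peak 5 (chr7:112726300-112726499, plus strand), the highest of Tead1, which was added after its values were seen.
Wwtr1 peak 4: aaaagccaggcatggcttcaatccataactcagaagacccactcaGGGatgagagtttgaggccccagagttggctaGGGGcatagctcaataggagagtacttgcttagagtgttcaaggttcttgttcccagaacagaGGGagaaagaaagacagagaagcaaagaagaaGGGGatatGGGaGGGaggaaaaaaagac
Yap1 peak 1: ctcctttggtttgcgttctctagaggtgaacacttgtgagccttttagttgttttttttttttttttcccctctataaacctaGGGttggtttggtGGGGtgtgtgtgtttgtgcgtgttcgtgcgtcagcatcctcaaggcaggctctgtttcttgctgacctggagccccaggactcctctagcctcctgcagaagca
Amotl2 peak 1: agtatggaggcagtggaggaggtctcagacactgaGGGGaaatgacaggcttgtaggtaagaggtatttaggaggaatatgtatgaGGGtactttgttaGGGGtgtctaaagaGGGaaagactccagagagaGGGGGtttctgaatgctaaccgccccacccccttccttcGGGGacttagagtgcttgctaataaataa
Tead1 peak 5: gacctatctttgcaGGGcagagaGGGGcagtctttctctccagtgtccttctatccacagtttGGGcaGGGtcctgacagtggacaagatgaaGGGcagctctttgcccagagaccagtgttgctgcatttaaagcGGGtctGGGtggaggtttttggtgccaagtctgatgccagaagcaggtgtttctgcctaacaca

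All 4 windows were intronic. They held 6 (Wwtr1), 2 (Yap1), 6 (Amotl2) and 7 (Tead1) runs of GGG on the strand of the transcript, and 3, 2, 2 and 1 runs of CCC. Among the centre windows of 21757 tested peaks with a gene, 82.58% held at least 1 run of GGG and 78.526% at least 1 run of CCC on that strand, with a median of 2 GGG runs. Repeat-masked bases made up 37.5% of the Wwtr1 window, 35% of the Yap1 window, 9.5% of the Amotl2 window and 0% of the Tead1 window. Runs of G were thus found in windows of genes that gained signal and of genes that did not.

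Of all 35 peaks, 8 (22.9%) were called higher and 0 were called lower. The share called higher was thus below the 32.9% of the 25815 autosomal peaks tested, and 0.883% of those were called lower. A peak was called where its fold change passed 1.5 with an adjusted p below 0.1, from limma on log2(score + 1) with Benjamini-Hochberg adjustment over all tested peaks, and every log2 fold change below is on that scale, Kmt5b sKO over Ctrl. All 35 member peaks passed the filter of a mean score over 30, the lowest being Lats1 peak 2 with a mean of 33.5. The median log2 fold change was 0.14 over the 35 peaks and 0.35 over all tested peaks, and 21 of 35 were positive against 78.7% of the whole table. In 9 peaks all 3 Kmt5b sKO libraries lay above the 3 Ctrl libraries and in 2 below, against 41.5% and 3.81% of all tested peaks. The gain was not shared by all members: the 14 peaks outside Tead1 had a median of 0.61 with 8 called, and the 21 of Tead1 a median of -0.07 with none. This split was not planned, and the median peak length was 2300 bp outside Tead1 and 4200 bp in it. An S9.6 score from a bulk of cells cannot tell more cells with a hybrid from more hybrid per cell.

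**Figure D1:**
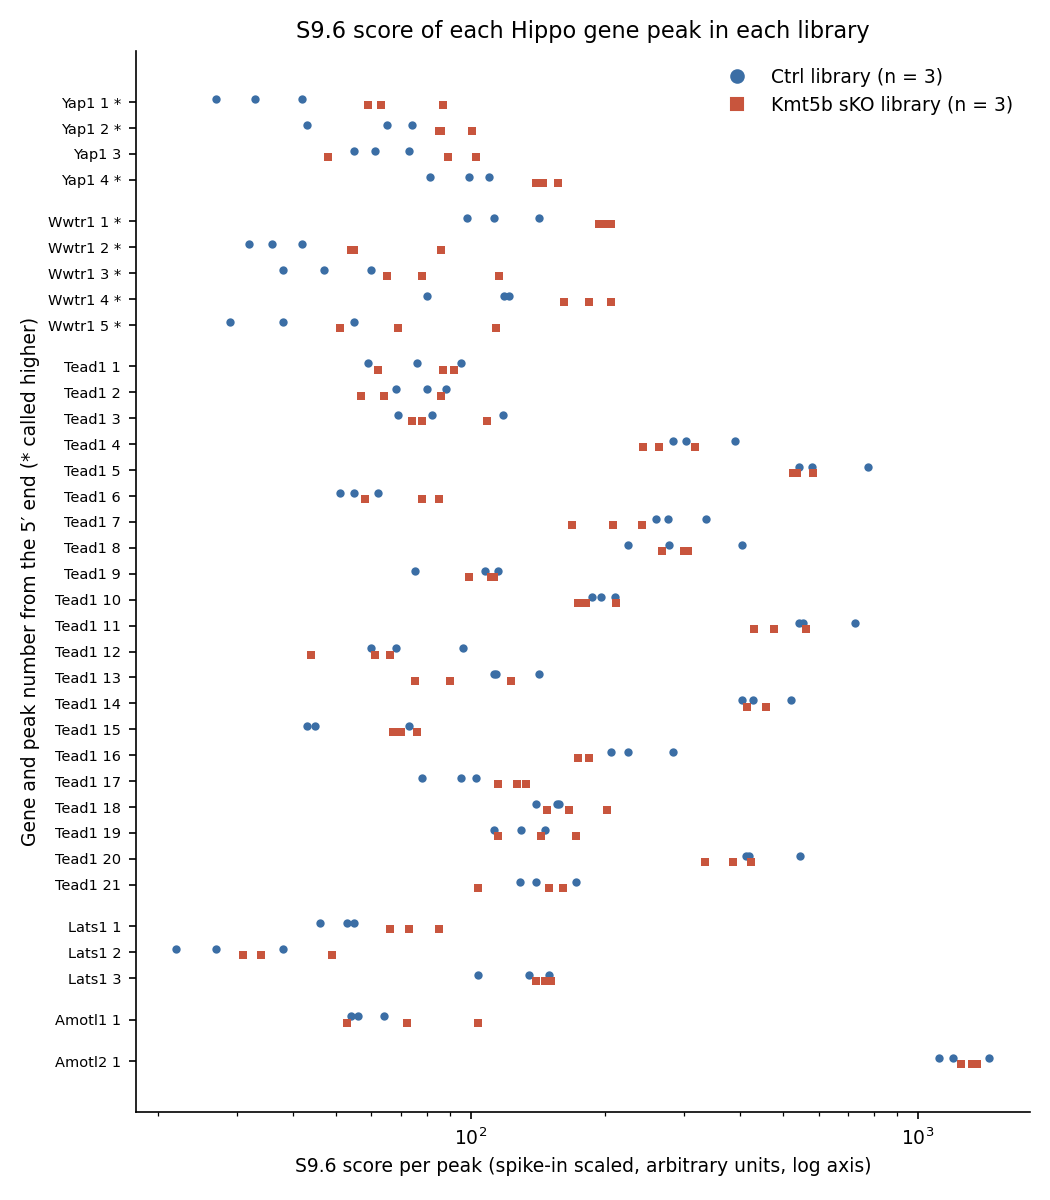
Score of each of the 35 Hippo gene peaks in each library (log axis, spike-in scaled, arbitrary units), with circles for the 3 Ctrl and squares for the 3 Kmt5b sKO libraries and peaks numbered from the 5′ end of each gene. All 8 peaks marked with an asterisk (called higher) are in Yap1 and Wwtr1, and scores run from 22 in Lats1 peak 2 to 1444 in Amotl2.

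Yap1 (ENSMUSG00000053110, chr9:7931999-8004596 on the minus strand of mm10, 72.6 kb) had higher S9.6 signal in Kmt5b sKO at 3 of its 4 peaks, by 1.49- to 2.05-fold as ratios of mean scores. The gain was spread along the gene, from 9.4 kb to 64.3 kb behind the annotated 5′ end. Yap1 and Wwtr1 were singled out by the study for gained peaks in these same libraries, so their gains here are not independent evidence.

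Yap1 peak 1 (chr9:7994600-7995799, 1200 bp, intronic), the one closest to the start of the gene, scored 27, 42 and 33 in Ctrl and 87, 63 and 59 in Kmt5b sKO. The libraries of the genotypes did not overlap, and the log2 fold change was 1.02 (SE 0.28, limma adjusted p = 0.0020). Yap1 peak 2 (chr9:7967600-7970199, intronic) scored 43, 74 and 65 in Ctrl and 86, 101 and 85 in Kmt5b sKO, again without overlap but with a smaller difference (log2 fold change 0.60, SE 0.22, adjusted p = 0.0233). Its ratio of mean scores was 1.49, so it lay at the edge of the fold threshold. Yap1 peak 4 (chr9:7938600-7941999), which covered 25 coding bases towards the 3′ end, scored 81, 110 and 99 in Ctrl and 145, 140 and 157 in Kmt5b sKO (log2 fold change 0.61, SE 0.19, adjusted p = 0.0058). All 3 Kmt5b sKO libraries were above the Ctrl libraries there too. In Yap1 peak 3 (chr9:7963800-7966199), which contains an annotated transcript start inside the gene, the genotypes overlapped: 55, 73 and 61 in Ctrl and 48, 103 and 89 in Kmt5b sKO (log2 fold change 0.28, SE 0.23, adjusted p = 0.35). Peak 1 was called with any library left out. Peaks 2 and 4 lost their calls without Ctrl replicate 1 (log2 fold changes of 0.38 and 0.49), peak 2 also without Kmt5b sKO replicate 2 (0.52) and peak 4 without Kmt5b sKO replicate 3 (0.57). Without Kmt5b sKO replicate 1, peak 3 was called as well (0.61).

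Wwtr1 (ENSMUSG00000027803, chr3:57455649-57575910 on the minus strand, 120 kb) had higher signal in Kmt5b sKO at all 5 of its peaks, by 1.69- to 1.92-fold as ratios of mean scores. Their log2 fold changes lay between 0.77 and 0.89, a narrow range for peaks of 1000 to 4600 bp. Peak 1, the nearest to the annotated start, was centred 44.8 kb downstream of it and peak 5 at 109 kb.

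Wwtr1 peak 1 (chr3:57528800-57533399, intronic) scored 98, 142 and 113 in Ctrl and 194, 206 and 198 in Kmt5b sKO. The 3 Kmt5b sKO values were close to each other and well above the Ctrl values (log2 fold change 0.77, SE 0.18, limma adjusted p = 1.7e-04). Peak 4 (chr3:57473800-57478399, 200 coding bases) had a like size and difference, with 119, 122 and 80 in Ctrl and 206, 162 and 184 in Kmt5b sKO (0.79, SE 0.18, adjusted p = 1.6e-04). Peak 2 (chr3:57526600-57527599, intronic), the shortest, scored 36, 42 and 32 in Ctrl and 86, 55 and 54 in Kmt5b sKO (0.78, SE 0.28, adjusted p = 0.0184), and peak 3 (chr3:57499800-57501999, 137 coding bases) scored 47, 60 and 38 in Ctrl and 78, 116 and 65 in Kmt5b sKO (0.81, SE 0.24, adjusted p = 0.0041). In these 4 peaks no Kmt5b sKO library was as low as any Ctrl library. Peak 5 (chr3:57466000-57468199, intronic) was called although the genotypes overlapped, since Kmt5b sKO replicate 3 at 51 was below Ctrl replicate 2 at 55 (29, 55 and 38 in Ctrl, 69, 114 and 51 in Kmt5b sKO, log2 fold change 0.89, SE 0.26, adjusted p = 0.0035). Peaks 1 and 4 were called with any library left out. Peaks 3 and 5 lost their calls without Kmt5b sKO replicate 2 (0.57 and 0.58) and peak 2 without Kmt5b sKO replicate 1 (0.57), so that without Kmt5b sKO replicate 2 the count of Hippo gene peaks called higher was 5 in place of 8.

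Tead1 (ENSMUSG00000055320, chr7:112679318-112906807 on the plus strand, 227 kb), the gene of a DNA-binding partner of both coactivators, carried far more S9.6 signal than Yap1 or Wwtr1 and showed no gain. Its 21 peaks covered 57.6% of the gene, against 13.2% of Yap1 and 12.1% of Wwtr1, and Tead1 ranked 47th by number of peaks and 91st by summed score among 8490 genes of the table. Log2 fold changes ran from -0.50 to 0.45, 7 of 21 were positive, and no peak was called.

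The highest of them, peak 5 (chr7:112719800-112732999, 13200 bp, intronic), scored 543, 774 and 579 in Ctrl and 538, 583 and 527 in Kmt5b sKO, so that the genotypes overlapped (log2 fold change -0.19, SE 0.14, limma adjusted p = 0.30). Tead1 peak 7 (chr7:112738000-112745399), which holds an annotated internal transcript start and 85 bases of untranslated exon, was the lowest in fold change. It scored 260, 336 and 277 in Ctrl and 169, 242 and 208 in Kmt5b sKO, each Kmt5b sKO library being below every Ctrl library (-0.50, SE 0.16, adjusted p = 0.0072), but the difference was short of 1.5-fold. Without Kmt5b sKO replicate 2 it passed that threshold (-0.62). Peak 16 was the other one with all Kmt5b sKO libraries below Ctrl (206, 284 and 225 against 184, 174 and 184, log2 fold change -0.38, adjusted p = 0.051). In peak 17 all were above (103, 95 and 78 against 133, 127 and 115, log2 fold change 0.45, adjusted p = 0.059). Peak 15, of 1600 bp, was called higher without Ctrl replicate 2 alone (0.68). Position along the gene and fold change had a Spearman rho of 0.09 over the 21 peaks, which share a gene and the same libraries.

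**Figure D2:**
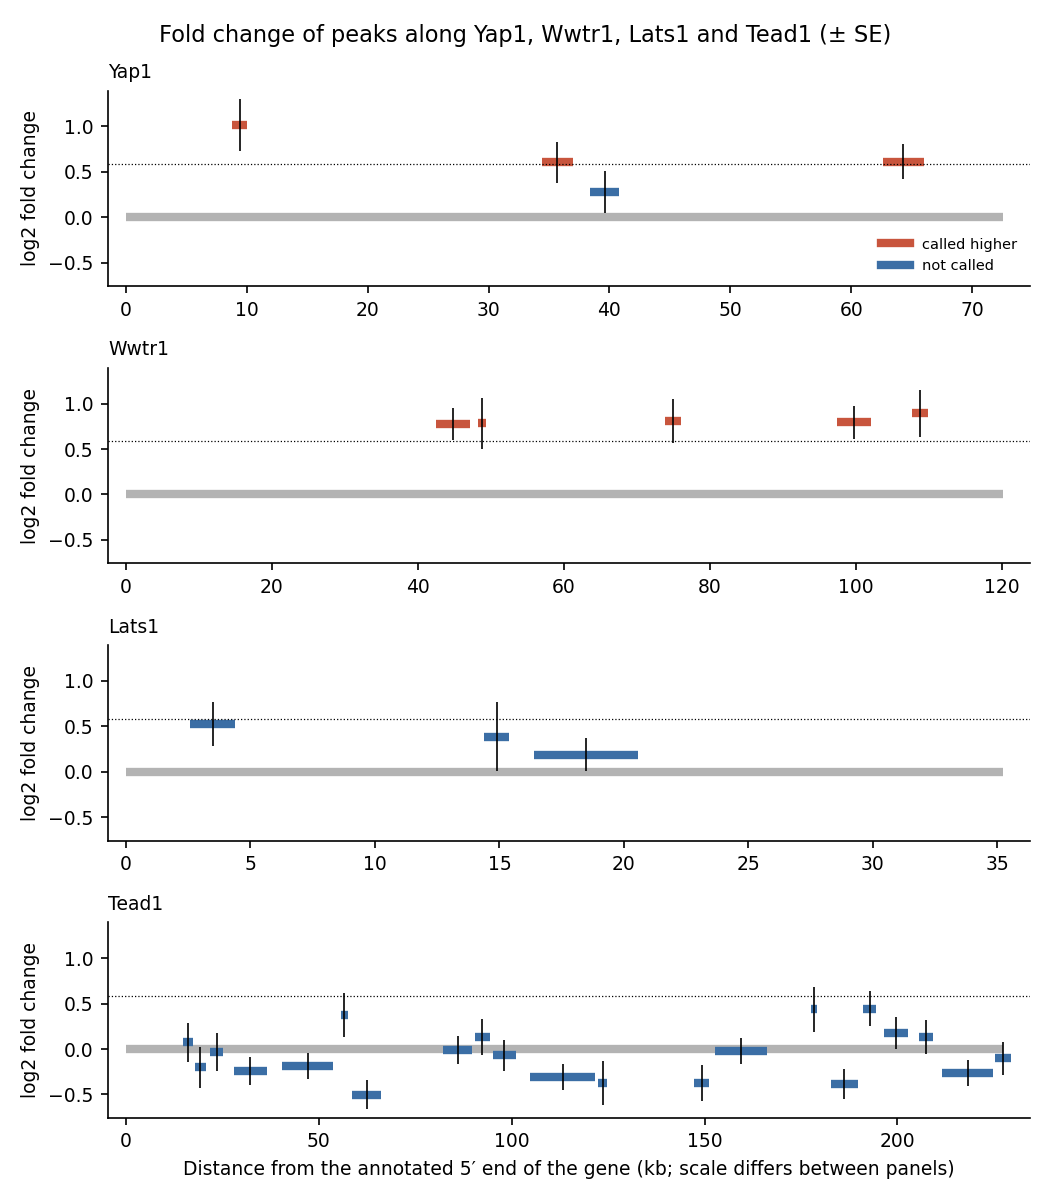
Log2 fold change of score + 1 (Kmt5b sKO over Ctrl, vertical lines ± SE) of each peak, drawn at its extent in kb from the annotated 5′ end of Yap1, Wwtr1, Lats1 and Tead1, with the gene as a grey bar and the 1.5-fold threshold dotted. The called peaks of Yap1 and Wwtr1 lie from 9.4 kb to 109 kb into the genes, and the 21 peaks of Tead1 lie on both sides of 0.

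Lats1 (ENSMUSG00000040021, chr10:7681214-7716460 on the plus strand, 35.2 kb), 1 of the 2 kinases that phosphorylate YAP1 and TAZ, had 3 peaks with positive log2 fold changes, none of them called. Peak 1 (chr10:7683800-7685599, intronic, 3.5 kb behind the start) came nearest to a call, with 53, 46 and 55 in Ctrl and 73, 85 and 66 in Kmt5b sKO. The genotypes did not overlap and the adjusted p was 0.072 by limma, but the log2 fold change of 0.53 (SE 0.24) was under the fold threshold, which it passed without Kmt5b sKO replicate 3 (0.61). Peak 2 (chr10:7695600-7696599), the member peak nearest above the level filter, scored 38, 27 and 22 in Ctrl and 31, 34 and 49 in Kmt5b sKO (0.39, SE 0.38, adjusted p = 0.45). Peak 3 (chr10:7697600-7701799), the highest of the gene with 240 coding bases, scored 104, 150 and 135 in Ctrl and 140, 147 and 151 in Kmt5b sKO (0.19, SE 0.18, adjusted p = 0.44). In both the genotypes overlapped.

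The kinase gene Lats2 (ENSMUSG00000021959, chr14:57689662-57758388 on the minus strand) was absent by name, not by signal. The table gives each peak 1 gene, that with the longest overlap, and 5 peaks within Lats2 carried the name Gm49361 (ENSMUSG00000114942), a protein-coding gene annotated on the same strand at chr14:57642077-57746103. Such peaks cannot be divided between overlapping genes, and they are not counted among the 35. Of the 5, 1 was called higher (20.0%, against 32.9% of all tested peaks). This peak, chr14:57708000-57708999, scored 39, 32 and 23 in Ctrl and 51, 52 and 46 in Kmt5b sKO (log2 fold change 0.68, SE 0.33, limma adjusted p = 0.089). It was 1000 bp long. Of all tested peaks of 200 to 1200 bp, 67.8% were called higher, with a median log2 fold change of 0.88. The other 4 had log2 fold changes of -0.03 to 0.04. The highest of these, chr14:57729400-57735799, scored 195, 256 and 229 in Ctrl and 220, 222 and 218 in Kmt5b sKO, and it holds an annotated transcript start of Lats2. A sixth peak of that name, 1662 bp downstream of Lats2 (chr14:57686600-57687999), scored 40, 41 and 42 in Ctrl and 83, 51 and 85 in Kmt5b sKO and was called higher (0.78, SE 0.26, adjusted p = 0.011). It was 1400 bp long, and 47.5% of all tested peaks of 1400 to 2000 bp were called higher.

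The angiomotin genes had 1 peak each, that of Amotl2 having the highest score of the 35 and that of Amotl1 a low one. Amotl2 (ENSMUSG00000032531, chr9:102716672-102733418 on the plus strand, 16.7 kb) was almost wholly covered by a peak of 16400 bp (chr9:102717800-102734199, 93.3% of the gene), which scored 1200, 1444 and 1116 in Ctrl and 1250, 1322 and 1358 in Kmt5b sKO. The genotypes overlapped (log2 fold change 0.07, SE 0.13, limma adjusted p = 0.70). The sign is not settled: it was -0.0078 without Ctrl replicate 3. Amotl1 (ENSMUSG00000013076, chr9:14541966-14645056 on the minus strand, 103 kb) had a single intronic peak of 2200 bp (chr9:14584400-14586599) with 54, 64 and 56 in Ctrl and 72, 53 and 104 in Kmt5b sKO (0.34, SE 0.24, adjusted p = 0.26). The Kmt5b sKO libraries of that peak lay on both sides of the Ctrl libraries.

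Summed over its peaks, Yap1 scored 206, 299 and 258 in Ctrl and 366, 407 and 390 in Kmt5b sKO. Wwtr1 scored 329, 421 and 301 against 633, 653 and 552, and Lats1 195, 223 and 212 against 244, 266 and 266. In these 3 genes each Kmt5b sKO library was above every Ctrl library. Of all tested peaks taken singly, 41.5% were separated in this way. The share among gene sums of the whole table was not computed. The means were 254 ± 46.6 and 388 ± 20.6 for Yap1 (SD, n = 3 of each genotype, ratio 1.52), 350 ± 62.8 and 613 ± 53.5 for Wwtr1 (1.75) and 210 ± 14.1 and 259 ± 12.7 for Lats1 (1.23). Each had an exact permutation p of 0.1, two-sided, the smallest that 3 libraries against 3 allow, and 0.2 after Benjamini-Hochberg adjustment over the 6 genes. Tead1 scored 4152, 5551 and 4330 in Ctrl and 4135, 4395 and 4149 in Kmt5b sKO, with means of 4678 ± 762 and 4226 ± 146 (ratio 0.90, exact permutation p = 0.5). Ctrl replicate 2 was the highest library of Tead1, and without it the Ctrl values lay among those of Kmt5b sKO. The ratio was 1.32 for Amotl1 (exact permutation p = 0.4) and 1.05 for Amotl2 (exact permutation p = 0.6). Without Kmt5b sKO replicate 2 the number of genes whose libraries did not overlap was 5 in place of 3, with Amotl1 (ratio 1.52) above Ctrl and Tead1 (0.89) below it. The separation of Yap1 and Lats1 depended on the scaling. With all libraries set to the same total, Yap1 (1.33) and Wwtr1 (1.53) stayed above Ctrl without overlap, Lats1 (1.07) overlapped, and Tead1 (0.79) and Amotl2 (0.91) lay below Ctrl without overlap. Divided by the median peak of each library, Wwtr1 (1.26) alone stayed above, Yap1 (1.10) overlapped, and Tead1 (0.65), Amotl2 (0.75) and Lats1 (0.88) lay below Ctrl in every library.

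Per kb of peak, the mean score in Ctrl was 24.0 ± 4.30 for Wwtr1, 26.4 ± 2.41 for Amotl1, 26.5 ± 4.86 for Yap1, 30 ± 2.02 for Lats1, 35.2 ± 5.73 for Tead1 and 76.4 ± 10.4 for Amotl2 (SD, n = 3). Neighbours in this order below Amotl2 differed by no more than about their spread, while Amotl2 stood apart. In Kmt5b sKO the order changed: Tead1 was lowest at 31.8 ± 1.10, followed by Amotl1 at 34.7 ± 11.7, Lats1 at 37.0 ± 1.81, Yap1 at 40.4 ± 2.15, Wwtr1 at 42.0 ± 3.66 and Amotl2 at 79.9 ± 3.35. Yap1 and Wwtr1 thus went from below Tead1 to above it in score per kb of peak.

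**Figure D3:**
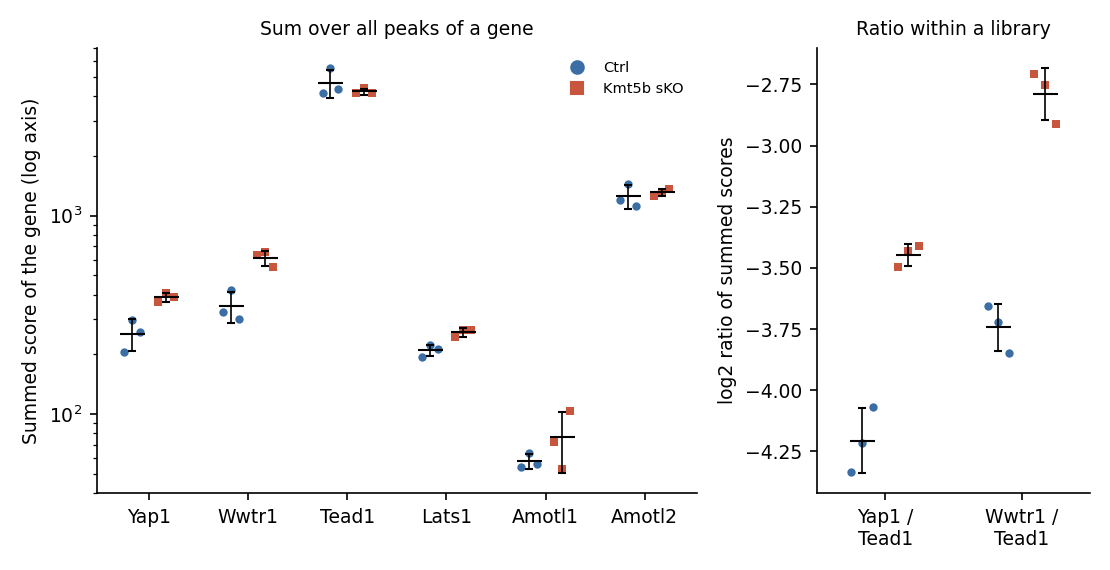
Left, summed score over all peaks of each Hippo gene in each library (log axis), with bars for mean ± SD of 3 libraries per genotype. Right, log2 ratio of the summed score of Yap1 or Wwtr1 to that of Tead1 within each library, which is higher in all 3 Kmt5b sKO than in all 3 Ctrl libraries for both genes. These ratios were chosen after the values were seen.

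A ratio of genes within a library does not depend on how libraries were scaled to each other. The log2 ratio of the summed score of Yap1 and Wwtr1 to that of Tead1, a comparison chosen after the values were seen, was -2.96, -2.95 and -2.95 in Ctrl and -2.05, -2.05 and -2.14 in Kmt5b sKO. The 3 Ctrl libraries were nearly equal and the Kmt5b sKO libraries all above them. The difference was 0.87, or 1.83-fold. It was 1.69-fold for Yap1 over Tead1 and 1.93-fold for Wwtr1 over Tead1. The exact permutation p of the joint ratio was 0.1, two-sided, the smallest possible. It gives no support, since the genes were set against each other by these same values. Restricted to the 11 Tead1 peaks of up to 4600 bp, the longest length in Yap1 and Wwtr1, the difference was 0.69, or 1.62-fold, again without overlap. This caps length but does not match it. The median peak length was 2500 bp in Yap1 and 2200 bp in Wwtr1, and most of the 11 Tead1 peaks were 2600 bp or longer.

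Length of a peak went with fold change in the members and in the whole table. Among tested peaks of 200 to 1200 bp 67.8% were called higher, followed by 47.5% at 1400 to 2000 bp, 26.2% at 2200 to 3000 bp, 12.8% at 3200 to 5800 bp and 4.27% at 6000 bp and more. Of the Hippo gene peaks, 2 of 3, 0 of 3, 3 of 8, 3 of 10 and 0 of 11 were called in these classes. The member medians were 0.78, 0.44, 0.31, 0.16 and -0.19, beside 0.88, 0.56, 0.31, 0.19 and 0.06 for all tested peaks. Spearman's rho of log2 fold change and length was -0.61 over the 35 members, -0.57 over all tested peaks and -0.45 over the 21 peaks of Tead1. Peaks share libraries and genes, so these are descriptions across peaks. Of the 11 member peaks of 6000 bp and more, 10 were in Tead1 and the other was that of Amotl2.

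At like lengths, the log2 fold changes of the Wwtr1 and Tead1 peaks did not overlap, which was not tested. The Wwtr1 peaks 1 and 4, both of 4600 bp, had log2 fold changes above 94.2% and 94.8% of the tested peaks of 3200 to 5800 bp. Yap1 peak 4 was above 88.5% of that class and Wwtr1 peaks 3 and 5 above 85.7% and 88.6% of the class of 2200 to 3000 bp, where Yap1 peak 2, also called, was above 75.3% and Yap1 peak 3 above 47.2%. The 6 Tead1 peaks of 3400 to 4200 bp ran from -0.38 to 0.45, with 5 of them below the class median of 0.19 and peak 17 above it, and the 3 of 2200 to 2800 bp from -0.38 to 0.07. By contrast the shortest gained peaks were ordinary for their length, Yap1 peak 1 being above 63.4% and Wwtr1 peak 2 above 41.5% of peaks of 200 to 1200 bp. So were Lats1 peak 3, above 49.3% of peaks of 3200 to 5800 bp, and the Amotl1 peak, above 53.3% of those of 2200 to 3000 bp. The shortest Tead1 peaks, peak 6 (1800 bp, 0.38) and peak 15 (1600 bp, 0.44), were above 37.0% and 41.7% of peaks of 1400 to 2000 bp.

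**Figure D4:**
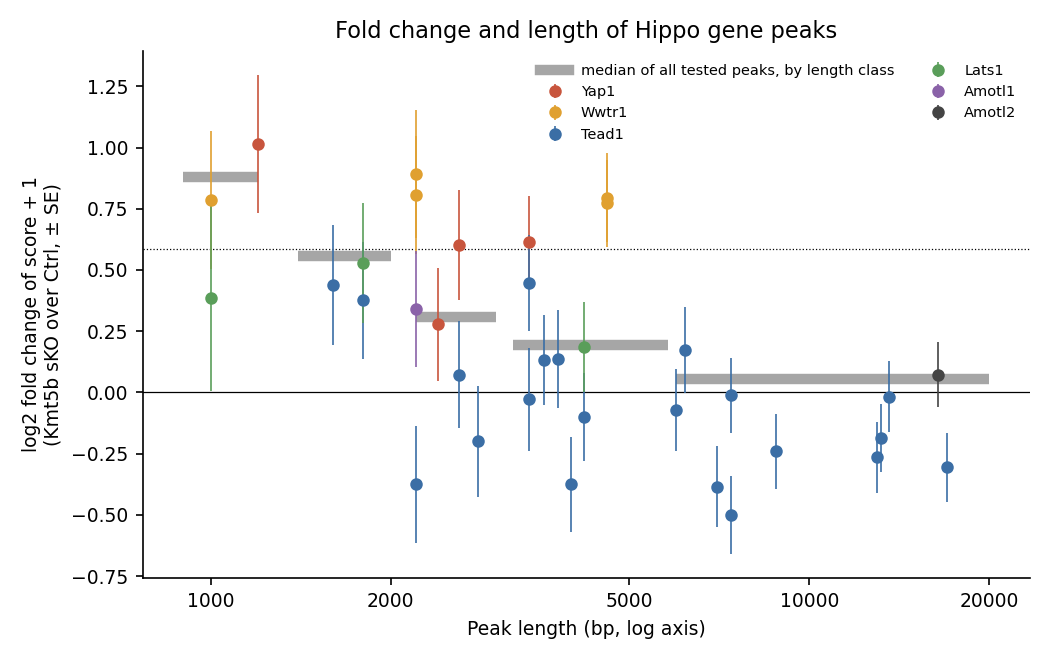
Log2 fold change of score + 1 (Kmt5b sKO over Ctrl, bars ± SE) against peak length in bp (log axis) for the 35 Hippo gene peaks, coloured by gene. Grey bars are medians of all tested peaks in 5 length classes (the outer classes cut off at the plot's range), which fall from 0.88 to 0.06, and the dotted line is 1.5-fold. Wwtr1 peaks of 4600 bp lie at 0.77 and 0.79, above the class median of 0.19.

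The summed score of the 6 member peaks of up to 2000 bp over that of the 29 longer ones, on a log2 scale within a library, was -4.57, -4.72 and -4.64 in Ctrl and -3.97, -4.07 and -4.10 in Kmt5b sKO. Short peaks held a larger share of the signal in every Kmt5b sKO library than in any Ctrl library. The difference was 0.60 (1.51-fold, exact permutation p = 0.1, the smallest possible), and the same ratio over all 25815 tested peaks differed by 0.60 as well (1.52-fold). The shift from long to short peaks in the Hippo genes was therefore of the size seen across the table.

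In sequence and position, the 8 called peaks had a median length of 2400 bp against 4000 bp for the 27 others, of which 21 were Tead1 peaks. Their median GC content was 42.6% against 46.0%, and the median share of repeat-masked bases 24.3% against 18.0%. All peaks of the table had medians of 2400 bp, 42.4% GC and 26.7% masked bases, so that the called peaks lay near the whole table and the uncalled ones, mostly of Tead1, further from it. An exon was touched by 3 of the 8 and 9 of the 27. None of the 35 peak centres lay within 1 kb of the start that the table assigns to its gene, although 4 peaks (Yap1 peak 3, Tead1 peaks 7 and 14 and Amotl2) contained the start of some annotated transcript. Of 8 promoter windows that RefSeq gives for these genes on GRCm38 (250 bases before to 50 after a start, with no entry for Tead1), 2 overlapped a peak. They were that of Amotl2, by 53 bases, and 1 of the windows of Lats2 (chr14:57734369-57734668), whole. Of all 32851 such windows, 4.597% overlapped a peak.

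Just outside the genes, 2 peaks lay on long non-coding RNAs annotated as transcribed away from the promoters of Tead1 and Yap1. These peaks were picked after their values were seen. On 2310014F06Rik (ENSMUSG00000085945), the peak chr7:112674400-112676199, 3118 bp upstream of Tead1, scored 39, 56 and 29 in Ctrl and 123, 126 and 59 in Kmt5b sKO (log2 fold change 1.26, SE 0.24, limma adjusted p = 6.2e-06). It was called higher next to a gene in which no peak was, and 59.8% of its bases were repeat-masked. At 1800 bp it falls in the length class of 1400 to 2000 bp, where 47.5% of all tested peaks were called higher. On Gm45494 (ENSMUSG00000110161), the peak chr9:8008800-8009599 upstream of Yap1 scored 18, 21 and 23 in Ctrl and 82, 42 and 24 in Kmt5b sKO (1.05, SE 0.41, adjusted p = 0.030). Its lowest Kmt5b sKO library was within 1 unit of the highest Ctrl library. In its length class, 200 to 1200 bp, 67.8% of all tested peaks were called higher. Both intergenic peaks within 10 kb downstream of Yap1 fell short of a call (0.52, adjusted p = 0.027, and 0.58, adjusted p = 0.16).

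A list of 34 other Hippo pathway genes showed gains at the rate of the whole table. Of these genes 28 had peaks, 105 in all, of which 101 were tested. Called higher were 33 (32.7%, against 32.9% of all tested peaks) and lower 0. The median log2 fold change was 0.43 against 0.35.

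Among the upstream regulators, 15 of 44 peaks were called (34.1%, against 32.9% of all tested peaks, median 0.43). Mark2, the gene of a polarity kinase, had the largest, with 39, 34 and 23 in Ctrl and 69, 86 and 91 in Kmt5b sKO (chr19:7339600-7341199, log2 fold change 1.35, SE 0.27, limma adjusted p = 1.7e-05). All 3 peaks of Dchs1, a cadherin of the Fat-Dachsous branch, and 5 of 8 of Frmd6, a FERM domain protein, were called. None of 3 was called in Nf2, the gene of merlin. The Dchs1 peaks were 2200 to 2600 bp long, the Frmd6 peaks 1400 to 11400 bp and the Nf2 peaks 2800 to 7800 bp. Of all tested peaks of 2200 to 3000 bp, 26.2% were called higher. Differences between these genes were not tested. In the kinase cassette 4 of 16 were called, all 4 in Stk3 (the gene of MST2, which activates the LATS kinases), and none in Sav1 or Stk4. Stk3 had its largest at chr15:35095600-35096799, with 13, 30 and 23 in Ctrl and 77, 49 and 42 in Kmt5b sKO (1.34, SE 0.37, adjusted p = 0.0019). Of the LIM proteins that inhibit the LATS kinases, 2 of 7 peaks were called (28.6%), led by Ajuba (0.82, adjusted p = 3.1e-04). Ptpn14, a phosphatase that binds YAP1, had 4 of 12 called (33.3%), the largest at 0.90 (adjusted p = 0.0074). The largest peak of Mark2 was 1600 bp long, and 47.5% of all tested peaks of 1400 to 2000 bp were called higher. Those of Stk3 and Ptpn14 were 1200 bp long, and 67.8% of all tested peaks of 200 to 1200 bp were called higher.

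The other TEAD genes had called peaks at about the rate of the whole table. Of 12 peaks on Tead2, Tead3 and Tead4, 4 were called higher (33.3%, against 32.9% of all tested peaks), with a median of 0.41. Their median length was 2600 bp, against 4200 bp in Tead1, where none was called. Tead2 led with the peak chr7:45217400-45219799, which scored 57, 58 and 70 in Ctrl and 112, 145 and 114 in Kmt5b sKO (0.99, SE 0.21, limma adjusted p = 4.8e-05). The 4 peaks on the cofactor genes Vgll2, Vgll3 and Vgll4, whose proteins compete with YAP1 for TEAD factors, had log2 fold changes just below 0 (median -0.10), with none called and a median length of 24900 bp. The difference between these genes was not tested, and peak length differed between them. Of 6 peaks on YAP1 target genes, 4 were called (66.7%, against 32.9% of all tested peaks, median 0.84). Axl, a receptor tyrosine kinase gene, held 4 of the 6 peaks and 3 of the 4 calls. Its largest was chr7:25765800-25766999, with 28, 34 and 32 in Ctrl and 74, 61 and 100 in Kmt5b sKO (1.27, SE 0.28, adjusted p = 8.0e-05). The remaining call was on Ccn1, the gene of a matricellular protein (0.81, adjusted p = 5.6e-05). The peak of Ankrd1 was not called (0.13), and Ccn2 had no peak.

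**Figure D5:**
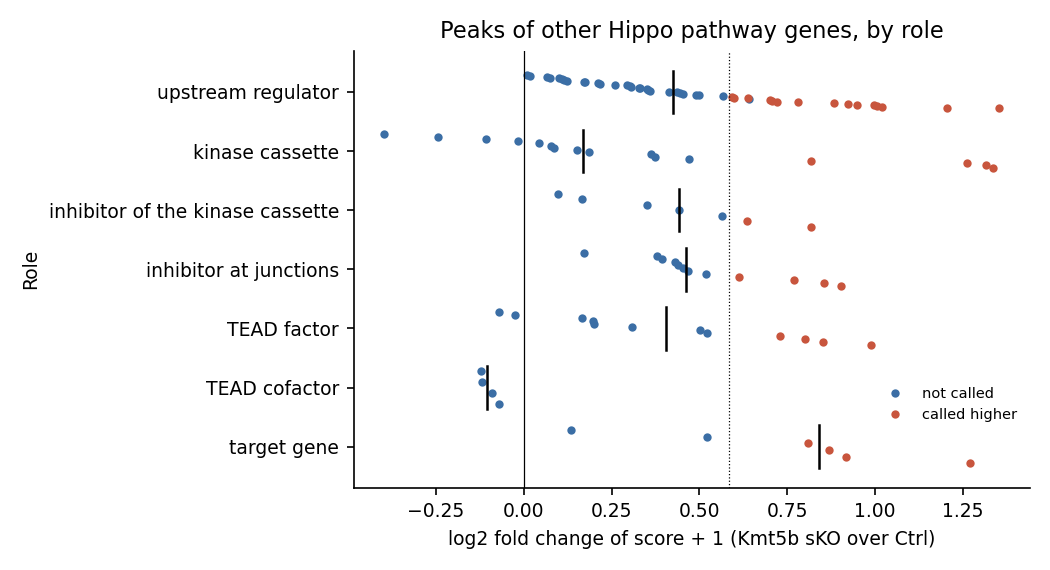
Log2 fold change of score + 1 (Kmt5b sKO over Ctrl) of the 101 tested peaks of the other Hippo pathway genes, by role. Black bars are medians per role and the dotted line is 1.5-fold. Target gene peaks have the highest median (0.84, from 6 peaks, 4 of them on Axl) and TEAD cofactor peaks the lowest (-0.10, from 4 peaks).

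The calls rest on the scale set by the spike-in. With each library centred on its median peak, 0 Hippo gene peaks were called higher and 9 lower, all in Tead1, when 10.3% of tested peaks were called higher and 11.9% lower. With all libraries set to the same total, 4 were called higher (1 in Yap1 and 3 in Wwtr1) and 2 lower, both in Tead1, beside 21.5% and 3.17% of tested peaks. After quantile normalization 0 were called higher and 4 lower, again in Tead1 (8.02% and 7.7% of tested peaks). With variances estimated from each peak alone, 4 were called higher, 2 each in Yap1 and Wwtr1, and 0 lower (21.1% and 0.291% of tested peaks).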

How the data were processed

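The 3 Ctrl and 3 Kmt5b sKO S9.6 libraries were grouped by the genotype in their labels. The 1 input library of each genotype was not used here. According to the methods and the submitters' processing notes, reads were trimmed with Trimmomatic 0.39, aligned to mm10 with STAR 2.7.3a and deduplicated with Picard 2.21.7, and peaks were called against input with Epic2 (listed as SICER 0.0.41), freed of blacklisted regions and merged into union peaks, each named for the gene of Ensembl release 99 with the longest overlap. The score deposited by the authors is the signal per union peak, scaled to Drosophila spike-in reads and rounded. It is not a read count, so no count model was fitted, and the read depth behind a score is unknown. A score sums signal over its peak and grows with length.

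Autosomal peaks with a mean score over 30 were tested with limma 3.58.1 on log2(score + 1) in R 4.3.3, two-sided, through lmFit and a trended eBayes. This scale understates the change of low peaks. All 25815 tested peaks entered the fit and the Benjamini-Hochberg adjustment. A call needed an adjusted p under 0.1 and a fold over 1.5, the thresholds of the methods. The prior degrees of freedom were infinite, so variances came from the trend alone. Sums and ratios were compared with exact permutation tests. The design named values for every called member peak, the highest peak of each gene and the largest called peak of each pathway role. Genes were placed with GENCODE release M21, sequences read with pysam 0.24.0, and coordinates are those of the table. The members, the pathway and marker lists and the tests were chosen with earlier results of these data known. Alternatives changed the pseudocount (0.5 or 10), the level filter, the scaling, the variance model, the fold threshold, the replicate block and each library in turn.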

Additional observations from a re-analysis of the deposited data

Results flagged for a closer look

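Among the other Hippo pathway genes, 4 peaks were too low to be tested. In 2 of them all 3 Kmt5b sKO libraries lay above all 3 Ctrl libraries, as in 41.5% of all tested peaks. These 2 were flagged for that separation and stand outside every comparison above. A peak of 400 bp on Wwc2, the gene of an upstream scaffold protein (chr8:47902600-47902999), had mean scores (± SD of 3 libraries) of 12.7 ± 1.53 for Ctrl and 32.0 ± 16.5 for Kmt5b sKO. A peak of 600 bp on the kinase gene Stk3 (chr15:35000800-35001399) scored 20.3 ± 6.51 in Ctrl and 32.7 ± 2.89 in Kmt5b sKO. Neither difference was tested.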

How the results depend on the processing

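In place of 8 Hippo gene peaks called higher there were 3 of 20 tested when the filter was a mean of 100, 4 once libraries had the same total, 0 centred on the median peak, 0 after quantile normalization, 4 with single-peak variances and 1 when a fold of 2 was required. Called lower were 2 with the same total, 9 when centred, 4 after quantile normalization and 3 with no fold minimum, all in Tead1. The median of the members turned to -0.015 at a mean over 100, -0.068 with the same total, -0.32 centred and -0.15 after quantile normalization. Leaving out 1 library gave 5 to 9 peaks higher, 0 to 1 lower and medians of 0.04 to 0.24. With a pseudocount of 10, 1 Yap1 peak was called in place of 3.

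For the other pathway genes 11 peaks were called higher at a mean over 100, 21 with the same total, 5 centred, 9 after quantile normalization, 8 at a fold over 2 and 52 with no fold minimum, in place of 33. Lower were 1, 2, 1 and 1 with the same total, centred, after quantile normalization and with no fold minimum. Their median was 0.23, -0.027 and 0.092 under these 3 scalings. Leaving out 1 library gave 30 to 39 higher, 0 to 0 lower and medians of 0.37 to 0.46.

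Single values changed sign as follows. Lats1 peak 3 went to -0.020 with the same total, -0.27 centred and -0.077 after quantile normalization, and, divided by the median peak, the Lats1 sum to 0.88 of Ctrl, the Amotl1 sum to 0.95 and the Amotl2 sum to 0.75 (0.91 with the same total, 0.99 without Ctrl replicate 3). Amotl1 went to -0.12 centred and -0.15 after quantile normalization, and Amotl2 to -0.14 with the same total, -0.39 centred and -0.0078 without Ctrl replicate 3 (-0.0078 to 0.18 leaving out 1 library). No cause was tested. The difference in the short to long ratio was 0.45 with a division at 3000 bp and 0.48 from mean log2 scores (0.56 to 0.63 leaving out 1 library), and that of Yap1 and Wwtr1 over Tead1 was 0.69 with Tead1 peaks of up to 4600 bp (0.86 to 0.90), an alternative chosen after seeing the data. The genes whose sums did not overlap numbered 3 to 5 leaving out 1 library and 4 under either scaling, of which 2 (same total) and 3 (median peak) lay below Ctrl. Same-numbered libraries did not deviate together (correlations of -0.009, 0.011 and -0.027), and with the replicate block 8 member peaks were called higher and 0 lower. Arbitrary units and 3 libraries per genotype limit what can be detected, as the smallest exact permutation p is 0.1.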
